A study of Nannochloropsis oceanica with 18 samples.

Results

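Genes annotated for the synthesis, activation and oxidation of fatty acids were followed in Nannochloropsis oceanica IMET1, a marine unicellular alga that stores oil, after its CO2 supply was lowered. The members were all genes whose annotation in the deposited tables names acetyl-CoA carboxylase, acyl carrier protein, a ketoacyl, enoyl or malonyl enzyme, fatty acid synthase, polyketide, acyl-CoA synthetase, acyl-CoA dehydrogenase, acyl-CoA oxidase, thiolase, acyl-CoA-binding or MaoC. Genes naming desaturase, elongase or DGAT would have been dropped, and none was. The rule found 57 of 9756 genes, of which 3042 carry no annotation. By annotation alone, 19 members are enzymes of oxidation, 12 activate or bind acyl groups, 10 are ketoacyl, type I or polyketide synthases, 5 are other ketoacyl-CoA or enoyl-CoA enzymes, 3 are carboxylases, 3 are enoyl-ACP reductases and 2 are the acyl carrier and its malonyl loader. The last 3 match by wording only. They are g94, a methylmalonyl-CoA mutase, g6930, a polyketide cyclase, and g8562, a phosphopantothenoylcysteine decarboxylase.

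Fatty acids are built from acetyl-CoA. Acetyl-CoA carboxylase makes malonyl-CoA, malonyl-CoA:ACP transacylase moves the malonyl group onto the acyl carrier protein (ACP), and ketoacyl synthases, reductases and a dehydratase then lengthen the chain in repeated rounds. Acyl-CoA synthetases activate free fatty acids to acyl-CoA for use in membrane and storage lipids or for breakdown. Beta-oxidation, in mitochondria and peroxisomes, shortens acyl-CoA again through acyl-CoA dehydrogenase or oxidase, enoyl-CoA hydratase, hydroxyacyl-CoA dehydrogenase and ketoacyl-CoA thiolase.

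Cultures of the IMET1 strain were grown in modified f/2 medium at 25 °C under continuous light of 80 µmol photons m-2 s-1 with 5% CO2, washed, placed in fresh medium and held at 5% CO2 for a preadaption of 1 h, after which the 0 h libraries were taken. All groups shared these steps. One set of cultures then stayed at 5% CO2 (HC) and the other was moved to 0.01% CO2 (VLC), each sampled at 3, 6, 12 and 24 h. The 18 libraries form 9 groups of 2 biological replicates, and no source used here ties a library to its culture. Poly(A) RNA was sequenced without strand information, so overlapping genes on opposite strands cannot be told apart.

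Values are FPKM, fragments scaled by transcript length and by the mapped fragments of the library, so levels can be compared between genes per length. FPKM carry no read depth, and the depth was not used here. A library lists 35 to 84 genes at 0, and the median FPKM of a library ran from 17.5 to 28.1, lowest in HC at 12 h. Replicates of a group differed over the members by a median of 0.045 to 0.13 on the log2 scale, and by 0.19 in HC at 3 h. A gene was tested where its mean FPKM reached 10 in either group, and called at a limma adjusted p of at most 0.05 with at least a 2-fold change of FPKM + 1. Changes are log2 differences of FPKM + 1, which understate the change of low genes. Libraries were made from whole cultures, so fewer cells with a transcript and less transcript per cell cannot be told apart.

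At 3 h and 6 h no member was called between VLC and HC. Over all genes tested, 0.701% were called above HC and 0.268% below it after 3 h, then 1.84% and 0.252% after 6 h. At an unadjusted p under 0.05, limma gave 15 of 49 members at 3 h and 12 of 50 at 6 h, but none of these reached 2-fold. The share of all genes at that p was not counted, and no other tool was run. The ratios of the tested members ran from -0.39 to 0.58 at 3 h and from -0.31 to 0.52 at 6 h. The highest at 3 h was g1681, a mitochondrial 3-ketoacyl-CoA thiolase, with 84.2 ± 3.75 FPKM for VLC against 55.9 ± 3.69 for HC (SD, n = 2), a log2 ratio of 0.58 with limma adjusted p = 0.00024.

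At 12 h, 20 of 54 tested members were higher in VLC and 2 were lower. These are 37% and 3.7% of the members tested, beside 27.6% and 4.36% of all genes tested. The median ratio over all 57 members, with no FPKM minimum, was 0.692, and over all genes it was 0.604. The median gene tested was itself 0.58 above HC in the VLC libraries. From 0 h the median gene dropped by 0.52 in HC and was up by 0.15 in VLC. Relative to the median gene, 8 members were higher and 7 lower, beside 8.85% and 11.4% of all genes, which is 14.8% and 13.0% of the members tested. At 24 h, 5 of 51 tested members were higher in VLC and 0 were lower, beside 11.2% and 5.95% of all genes. For the lower direction at 24 h, limma gave 15 members at an unadjusted p under 0.05, none of them 2-fold, and the share of all genes was not counted. In all, 24 members were called between VLC and HC at some time and 33 at none, which is 42.1% of the members beside 36% of all 9756 genes, counting a gene that was not tested as not called.

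**Figure D1:**
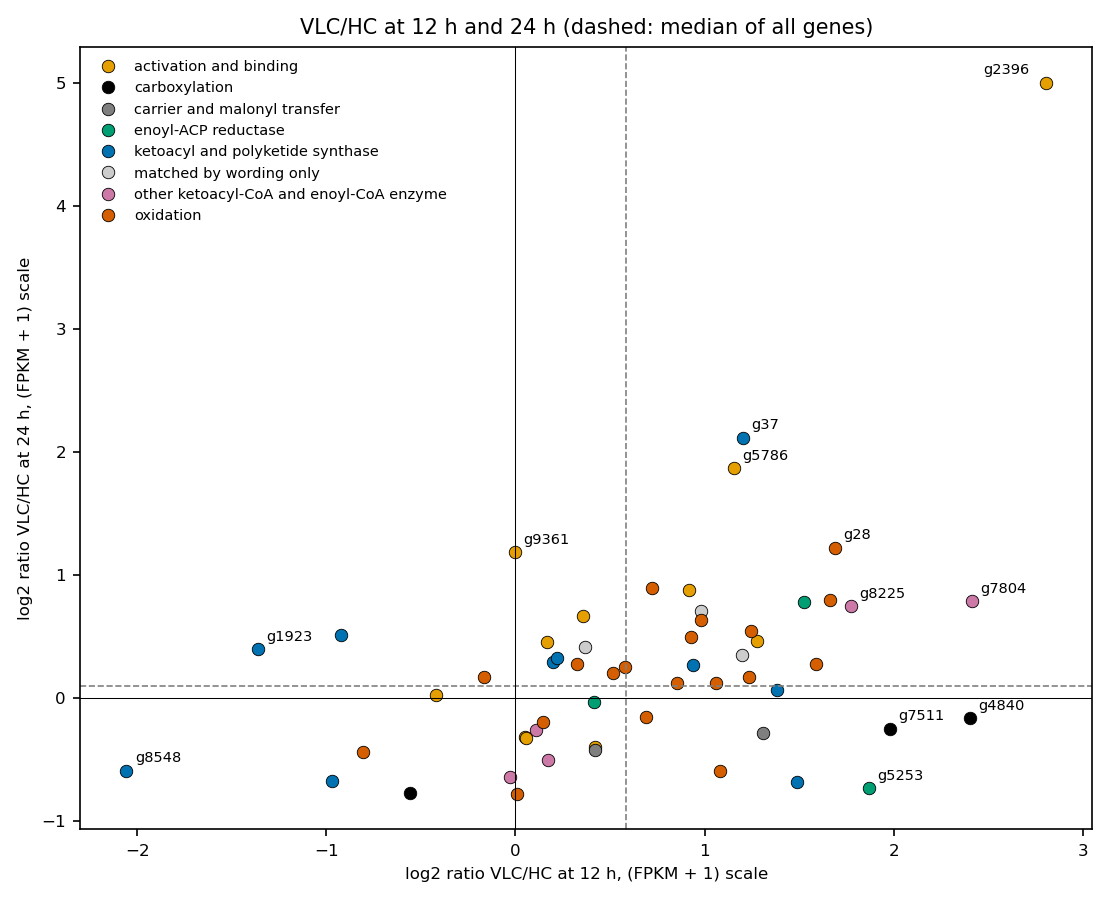
Log2 ratio VLC/HC of FPKM + 1 at 12 h (horizontal) and 24 h (vertical) for the 56 members with enough signal to be fitted, coloured by role, with dashed lines at the median of all genes tested. Carboxylases g4840 and g7511, reductase g5253 and synthase g7804 lie far to the right, with ratios of 1.87 to 2.41 at 12 h. Synthetase g2396 lies further right still, though untested at 12 h, and stands alone at the top, with 5.01 at 24 h.

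Among the carboxylases, g4840 and g7511 fell from 0 h in both arms and fell furthest in HC at 12 h, while the third gene, g8944, did not. The gene g4840 (scaffold 141, bases 21 to 1021) is a short model that begins near the first base of its scaffold, and g7511, annotated as partial, begins at base 1 of scaffold 267 and ends at base 6588. For g4840 the FPKM were 1244 and 1358 at 0 h, 977 and 1117 after 3 h of VLC, 234 and 213 after 6 h, 412 and 356 after 12 h, and 497 and 579.7 after 24 h. In HC they were 974 and 868 after 3 h, 188 and 176 after 6 h, 67.7 and 75.9 after 12 h, and 605 and 596 after 24 h. The 12 h pairs lay far apart, VLC 5.35-fold above HC, whereas after 24 h both HC libraries were slightly above both VLC libraries. The log2 ratio VLC/HC of g4840 was 2.40 ± 0.10 (SE) at 12 h, with limma adjusted p = 2.9e-10, and 1.82 relative to the median gene.

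For g7511, FPKM stood at 322 and 326 at 0 h, 347 and 359.8 after 3 h of VLC, 120.0 and 119 after 6 h, 101 and 88.6 after 12 h, and 242 and 262 after 24 h. Under HC the values were 252 and 302 after 3 h, 87.4 and 93.4 after 6 h, 20.6 and 26.3 after 12 h, and 301 and 297 after 24 h. Both arms were lower than 0 h at 6 h and 12 h, and by 24 h neither arm was called different from 0 h. The log2 ratio VLC/HC was 1.98 ± 0.11 at 12 h (adjusted p = 1.6e-09) and 1.40 relative to the median gene. The gene g8944 (scaffold 324, bases 278973 to 289277) spans 10305 bases and was the reverse in HC. After 12 h the VLC libraries had 137 and 138 FPKM, against 199.9 and 206 for HC. After 24 h they had 80.2 and 79.3, against 138 and 136. All VLC libraries lay below all HC libraries at both times, with ratios of -0.56 at 12 h and -0.77 at 24 h, neither of them 2-fold. Relative to the median gene it was called lower at 12 h, at -1.14.

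The acyl carrier protein and its malonyl loader differed from each other. Malonyl-CoA:ACP transacylase g6828 (scaffold 247) held 407 and 443 at 0 h, 214 and 225 after 3 h of VLC, 74.4 and 68.2 after 6 h, 45.3 and 44.7 after 12 h, and 114 and 120.2 after 24 h. The HC libraries held 172 and 242 after 3 h, 74.5 and 78.9 after 6 h, 14.6 and 21.1 after 12 h, and 142 and 144 after 24 h. Both arms lost most of the 0 h level by 6 h, and at 12 h the VLC pair was 2.52-fold above the HC pair without overlap. The ratio was 1.31 ± 0.15 (adjusted p = 2.1e-06), but 0.72 relative to the median gene, where it was not called.

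Acyl carrier protein g6500, the protein that carries the growing chain, stayed within a narrower range. Its FPKM were 166 and 187 at 0 h, 240.3 and 282 after 3 h of VLC, 244 and 250.5 after 6 h, 138 and 162 after 12 h, and 204 and 209 after 24 h. With HC the FPKM were 223 and 255 after 3 h, 241 and 243 after 6 h, 111 and 111 after 12 h, and 283 and 270.2 after 24 h. The lowest libraries of all 18 were the HC pair at 12 h, and no comparison with 0 h or between arms was called.

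Of the enoyl-ACP reductases, which finish each round of elongation, g5253 was below 0 h in both arms at every time. Its values were 697 and 743 at 0 h, 261 and 240.5 after 3 h of VLC, 121 and 114 after 6 h, 76.0 and 70.1 after 12 h, and 129.5 and 140.3 after 24 h. HC gave 262 and 272 after 3 h, 112 and 116 after 6 h, 17.3 and 21.5 after 12 h, and 224 and 226 after 24 h. The 0 h pair was the highest of the 18 libraries and the HC pair at 12 h the lowest, and the arms crossed between 12 h and 24 h. The ratio was 1.87 ± 0.09 at 12 h (adjusted p = 6.2e-10), 1.28 relative to the median gene. After 24 h it was -0.73, which is not 2-fold.

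The second reductase by level, g154, annotated as form II, ranged from 13.0 FPKM in an HC library at 12 h to 28.9 at 0 h. It read 25.6 and 28.9 at 0 h, 24.7 and 21.2 after 3 h of VLC, 17.2 and 17.8 after 6 h, 19.1 and 18.6 after 12 h, and 24.4 and 21.4 after 24 h. Libraries of HC had 22.2 and 25.4 after 3 h, 18.7 and 19.98 after 6 h, 13.0 and 14.8 after 12 h, and 22.3 and 24.5 after 24 h. No comparison of g154 was called. The third, g8627, went the other way, from 3.90 and 4.29 FPKM at the start to 26.1 and 29.0 after 12 h of VLC, with 9.97 and 7.97 after 12 h of HC. Its ratio at 12 h was 1.52, and 0.94 relative to the median gene, where it was not called.

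**Figure D2:**
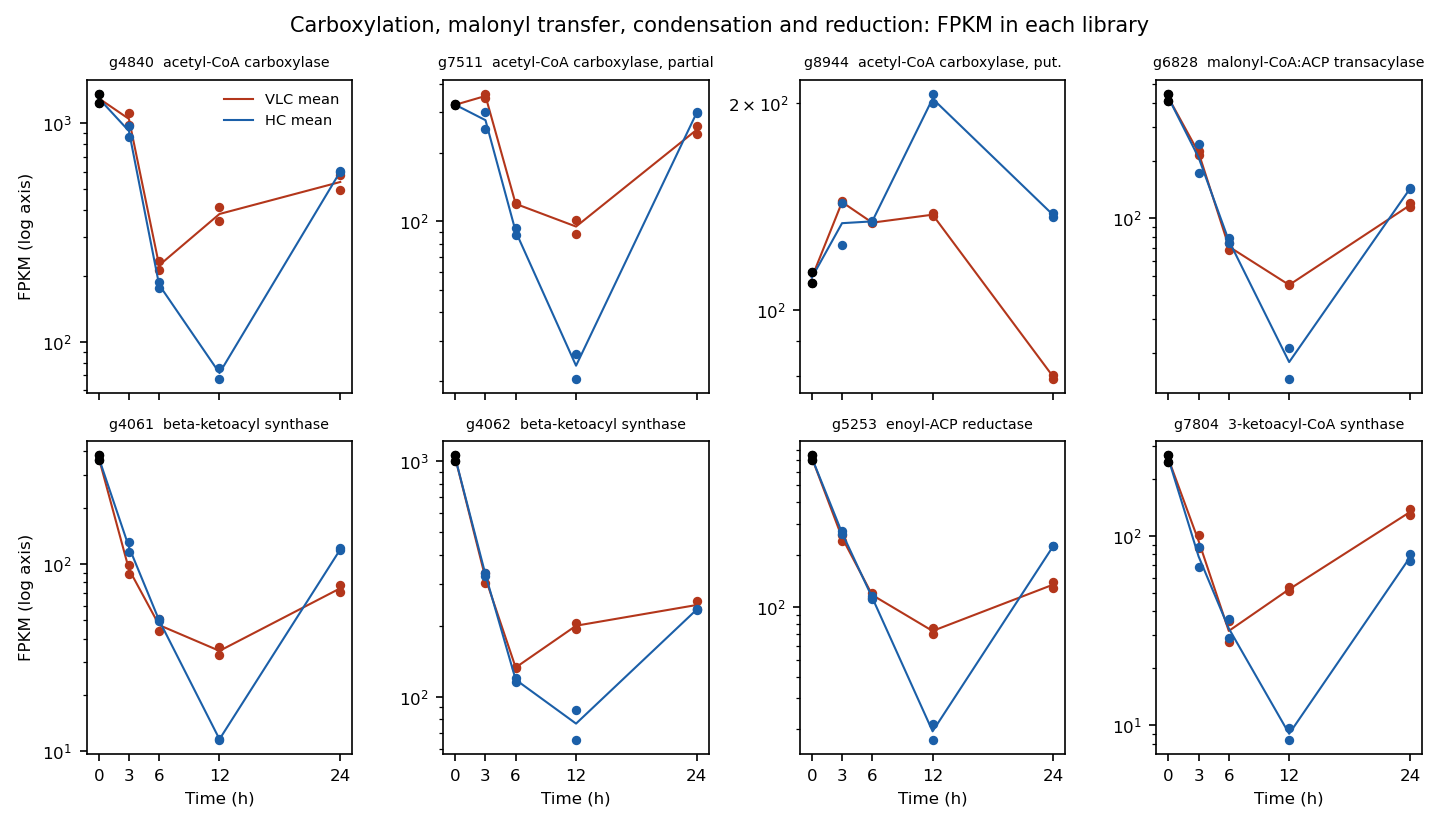
FPKM on log axes (vertical) against time in hours (horizontal) for 8 genes of carboxylation, malonyl transfer, condensation and reduction, with a point for each library (0 h black, VLC red, HC blue) and lines through the means. In 7 of the panels HC dips lowest at 12 h, as in g5253 at 17.3 and 21.5 FPKM, and in g8944 it peaks there.

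The 10 ketoacyl and related synthases, which condense malonyl units onto the chain, did not move as one group. The annotation of 8 of them reads beta-ketoacyl synthase without naming an acyl carrier type, so single-function and large multi-domain enzymes cannot be separated by name. At 12 h, 3 of the 10 were called higher in VLC (g4061, g4062 and g37) and 2 lower (g8548 and g1923). Among the 9 tested that is 33.3% and 22.2%, beside 27.6% and 4.36% of all genes. The median ratio of all 10 was 0.211, beside 0.604 over all genes.

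The neighbours g4061 and g4062, which lie 94 bases apart on scaffold 112, fell from 0 h in both arms. The more abundant, g4062, had 1002 and 1054 at 0 h, 333 and 303 after 3 h of VLC, 133 and 133 after 6 h, 194 and 206 after 12 h, and 235 and 254 after 24 h. HC libraries read 334 and 324 after 3 h, 116 and 120.3 after 6 h, 65.5 and 88.1 after 12 h, and 235 and 234 after 24 h. Every later library lay below the 0 h pair, and at 12 h both VLC libraries lay above both HC libraries. Its ratio was 1.38 ± 0.10 at 12 h (adjusted p = 3.2e-08), and that of g4061 was 1.49, falling to 0.80 and 0.90 relative to the median gene, where neither was called.

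The other pattern was a rise in HC at 12 h. In g1923 (scaffold 43, 10549 bases), FPKM came to 145 and 142 at 0 h, 96.4 and 97.9 after 3 h of VLC, 57.4 and 59.7 after 6 h, 182 and 194 after 12 h, and 128 and 109 after 24 h. Those of HC were 109.5 and 97.5 after 3 h, 70.3 and 75.3 after 6 h, 477 and 493 after 12 h, and 90.8 and 88.0 after 24 h. The HC pair at 12 h was the highest of all 18 libraries, and all its other libraries read 194 or less. The ratio VLC/HC was -1.36 ± 0.08 at 12 h (adjusted p = 3.3e-09) and 0.40 at 24 h. In g8548 (scaffold 295, 9768 bases) the values were 18.4 and 16.2 at 0 h, 13.8 and 14.5 after 3 h of VLC, 4.96 and 5.38 after 6 h, 26.2 and 29.5 after 12 h, and 7.54 and 7.20 after 24 h. The HC values were 14.2 and 14.9 after 3 h, 6.95 and 7.29 after 6 h, 122 and 116 after 12 h, and 11.9 and 11.3 after 24 h. The HC pair at 12 h again exceeded every other library, by more than 3-fold. The ratio was -2.06 ± 0.09 at 12 h (adjusted p = 4.2e-10).

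The gene g4950 (scaffold 145, 12593 bases) was also highest in HC at 12 h. It had 122 and 116 at 0 h, 151 and 164 after 3 h of VLC, 157 and 158 after 6 h, 223 and 228 after 12 h, and 86.0 and 87.6 after 24 h. In HC they were 144 and 159.6 after 3 h, 172 and 179.8 after 6 h, 436 and 451 after 12 h, and 143 and 135 after 24 h. The HC pair at 12 h was highest and the VLC pair at 24 h lowest of the 18 libraries. The ratio of -0.97 at 12 h fell just short of 2-fold as measured, and was called at -1.56 relative to the median gene. The low gene g7923, named for the polyketide synthase ppsA of phenolphthiocerol synthesis in mycobacteria, had 9.55 and 10.6 FPKM after 12 h of HC and 5.44 or less in every other library, and was called higher than at 0 h there, by 1.60. Between arms at 12 h it was not called as measured, at -0.92, and was called relative to the median gene, at -1.51.

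In g37 (scaffold 7, 16625 bases, the longest member by span), VLC instead rose above HC and stayed there. Its FPKM were 21.2 and 23.2 at 0 h, 21.1 and 21.0 after 3 h of VLC, 11.2 and 13.7 after 6 h, 23.9 and 25.2 after 12 h, and 50.7 and 51.1 after 24 h. Under HC the values were 16.0 and 17.8 after 3 h, 8.86 and 9.11 after 6 h, 10.1 and 10.03 after 12 h, and 11.4 and 10.6 after 24 h. The VLC pair at 24 h was the highest of the 18 libraries and the 2 arms did not overlap at any of the 4 times. The ratio was 1.20 ± 0.10 at 12 h and 2.12 ± 0.10 at 24 h (adjusted p = 7.6e-08 and 3.4e-10), but at 12 h it was 0.62 relative to the median gene and not called.

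The remaining 3 synthases were not called between arms. The gene g927, annotated as a type I fatty acid synthase, which carries all its domains on 1 protein, begins at base 1 of scaffold 13. It started from 73.2 and 86.8 FPKM. After 12 h the VLC libraries read 339 and 305 and the HC libraries 293 and 259, and after 24 h they read 60.0 and 52.4, and 46.6 and 42.6. The gene g10032 went up and down in the same way in both arms, with 12 h changes of 2.00 (VLC) and 1.80 (HC) against the start. The low gene g9573 rose at 24 h in both arms, by 2.24 and 1.97.

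**Figure D3:**
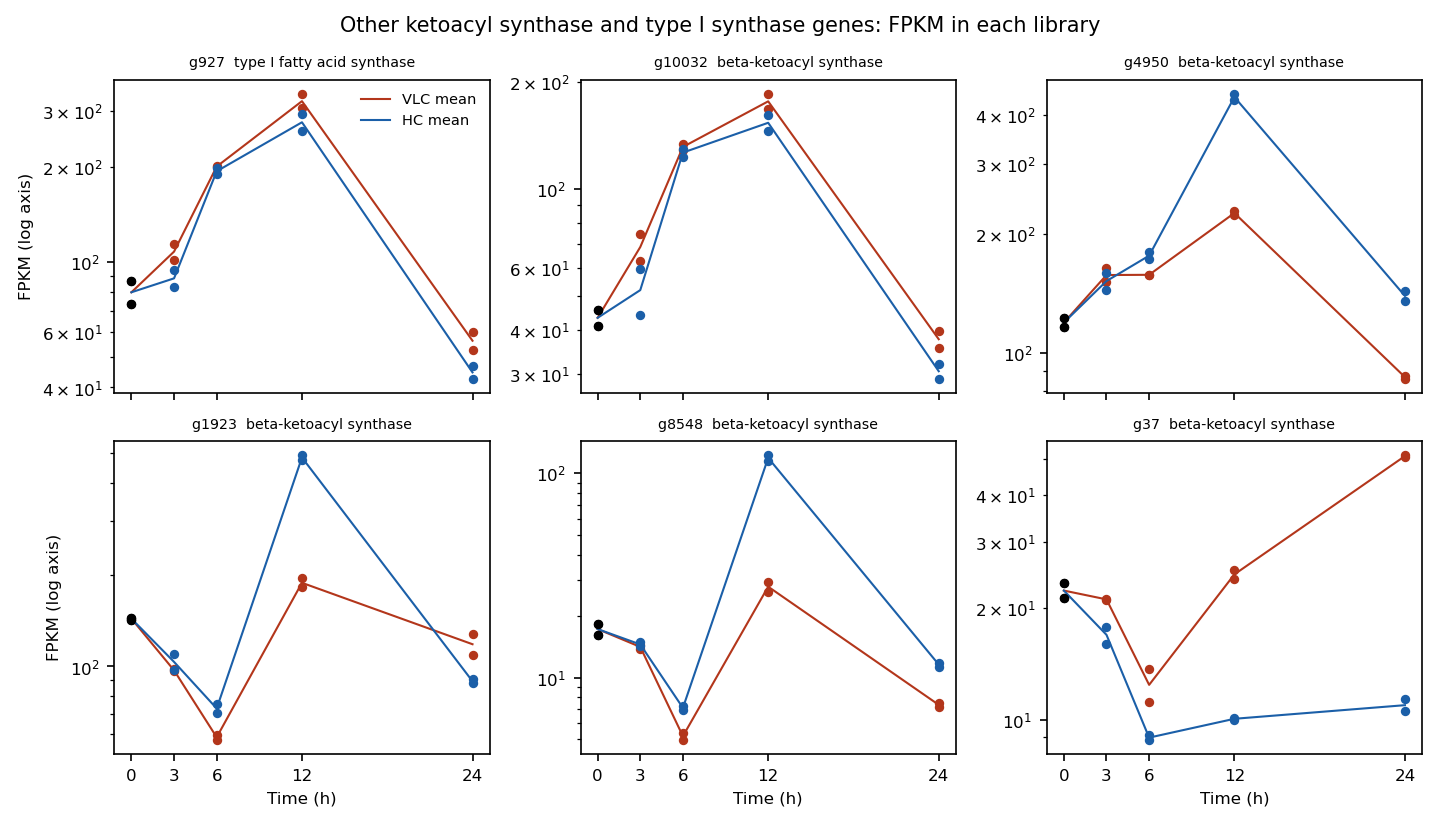
FPKM on log axes (vertical) against time in hours (horizontal) for 6 type I and ketoacyl synthase genes, with a point for each library (0 h black, VLC red, HC blue) and lines through the means. In HC, g4950, g1923 and g8548 peak at 12 h above all other libraries, whereas g37 is highest in VLC at 24 h, at 50.7 and 51.1 FPKM.

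Among the 5 other ketoacyl-CoA and enoyl-CoA enzymes, g7804 and g8225 were called higher in VLC at 12 h. The gene g7804 is a 3-ketoacyl-CoA synthase, the kind of enzyme that extends acyl-CoA to very long chains in plants. It showed 245 and 266 at 0 h, 102 and 86.4 after 3 h of VLC, 35.4 and 27.6 after 6 h, 51.0 and 53.6 after 12 h, and 128 and 139 after 24 h. The HC libraries held 68.5 and 87.3 after 3 h, 28.8 and 36.2 after 6 h, 9.66 and 8.38 after 12 h, and 73.6 and 80.4 after 24 h. Both arms fell from 0 h, and the HC pair at 12 h was the lowest of all libraries, 5.80-fold below VLC. The ratio was 2.41 ± 0.14 (adjusted p = 3.7e-09), the largest among called members at that time, and 1.83 relative to the median gene. At 24 h it was 0.79, below 2-fold.

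The peroxisomal trans-2-enoyl-CoA reductase g8225 had 16.9 and 12.4 FPKM after 12 h of VLC, against 3.54 and 3.49 for HC, a ratio of 1.77 (1.19 relative to the median gene). The most abundant of the 5, 3-ketoacyl-CoA reductase g4679, had 177 and 169 at 0 h, 155 and 149 after 3 h of VLC, 177 and 178 after 6 h, 132 and 139 after 12 h, and 70.6 and 74.4 after 24 h. With HC the FPKM were 195 and 168 after 3 h, 187 and 179 after 6 h, 139.9 and 136 after 12 h, and 115 and 112 after 24 h. Its VLC pair at 24 h was the lowest of the 18 libraries, and only this time in VLC was called against 0 h, at -1.24. The trans-2-enoyl-CoA reductase g5092 had 99.2 and 94.2 at 0 h, 139 and 149.6 after 3 h of VLC, 144 and 149 after 6 h, 69.2 and 66.8 after 12 h, and 112 and 117 after 24 h. HC gave 107 and 151 after 3 h, 143 and 148 after 6 h, 56.8 and 63.9 after 12 h, and 165 and 161 after 24 h. It was low in both arms at 12 h and was called in no comparison.

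Of the 12 members that activate or bind acyl groups, 3 of 9 tested were higher in VLC at 24 h, all acyl-CoA synthetases. That is 33.3%, beside 11.2% of all genes. At 12 h, 2 of 10 tested were higher, also synthetases, which is 20%, beside 27.6% of all genes. As measured, 0 were lower at either time, beside 4.36% of all genes at 12 h and 5.95% at 24 h. Relative to the median gene at 12 h, 0 were higher and 1 was lower (g8338), beside 8.85% and 11.4% of all genes. The gene g2396 (scaffold 69, bases 482833 to 485764) is a long chain acyl-CoA synthetase that was near 0 outside VLC at 12 h and 24 h. Its FPKM were 0.391 and 0.271 at 0 h, 0.278 and 0.173 after 3 h of VLC, 0.163 and 0.097 after 6 h, 6.28 and 7.28 after 12 h, and 39.9 and 38.5 after 24 h. Libraries of HC had 0.228 and 0.07 after 3 h, 0.27 and 0.231 after 6 h, 0.06 and 0.167 after 12 h, and 0.375 and 0.137 after 24 h. All 14 libraries other than those of VLC at 12 h and 24 h read below 0.4 FPKM, so the size of any fold rests on values close to 0. After 24 h the mean was 39.2 ± 1.00 FPKM for VLC against 0.256 ± 0.17 for HC (SD, n = 2), a log2 ratio of 5.01 ± 0.16 with adjusted p = 5.4e-12. At 12 h the mean of 6.78 FPKM in VLC was under the minimum for testing, and the ratio of 2.80 carries no call.

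The synthetase g5786 moved over the same times from a higher base. It had 12.5 and 9.94 at 0 h, 12.7 and 12.9 after 3 h of VLC, 12.2 and 14.6 after 6 h, 34.9 and 32.0 after 12 h, and 89.4 and 83.2 after 24 h. HC libraries read 11.9 and 10.1 after 3 h, 12.0 and 10.6 after 6 h, 13.7 and 15.3 after 12 h, and 22.9 and 22.8 after 24 h. The arms did not overlap at 12 h or 24 h. The ratio was 1.16 ± 0.12 at 12 h and 1.87 ± 0.12 at 24 h (adjusted p = 8.6e-07 and 1.0e-08), and at 12 h it was 0.57 relative to the median gene and not called. The very long-chain synthetase g9361 had 132 and 141 FPKM after 24 h of VLC, against 57.9 and 61.1 for HC, a ratio of 1.18. Its 12 h values overlapped. Here HC was the arm that had fallen from 0 h, by 1.59, whereas VLC was not called against 0 h at 24 h. The synthetase g3791 was called at 12 h, with 54.3 and 52.1 FPKM beside 19.9 and 22.8, a ratio of 1.28 (0.69 relative to the median gene, not called). Its VLC pair also lay above its HC pair at 3 h and 24 h, by 0.38 and 0.47, under 2-fold. At 6 h its VLC pair lay below, with 51.3 and 51.4 FPKM against 60.2 and 59.1 for HC.

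The most abundant synthetase by mean, g8338, had 177 and 177 at 0 h, 270.3 and 236 after 3 h of VLC, 343 and 319.9 after 6 h, 345 and 376 after 12 h, and 149.9 and 139.9 after 24 h. Those of HC were 325 and 310.1 after 3 h, 297 and 303 after 6 h, 483 and 481 after 12 h, and 143 and 142 after 24 h. Its HC pair at 12 h was the highest of all libraries. The ratio of -0.42 at 12 h became -1.003 relative to the median gene, at the edge of the 2-fold minimum. The acyl-CoA-binding protein g5924, which holds activated acyl chains in the cytosol, had 106 and 126 at 0 h, 121 and 142 after 3 h of VLC, 162 and 168 after 6 h, 406 and 441 after 12 h, and 100.5 and 109 after 24 h. The HC values were 149.6 and 134 after 3 h, 186 and 173 after 6 h, 350.1 and 310.0 after 12 h, and 63.9 and 66.7 after 24 h. Both arms were highest at 12 h, where it had risen from 0 h by 1.87 in VLC and 1.51 in HC.

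A pair of long chain synthetases changed strongly from 0 h and alike in direction in both arms. At all 4 times g5840 was higher and g6018 lower than at 0 h in either arm. For g5840 the starting libraries had 11.1 and 12.0 FPKM. After 12 h it read 249 and 236 with VLC, and 228 and 239 with HC. For g6018 they had 360.0 and 388. After 24 h it read 42.5 and 45.5 with VLC, and 30.0 and 33.7 with HC. The second binding protein, g2168, read 0.19 FPKM or less in all libraries, was listed at 0 in some of them and was not fitted.

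**Figure D4:**
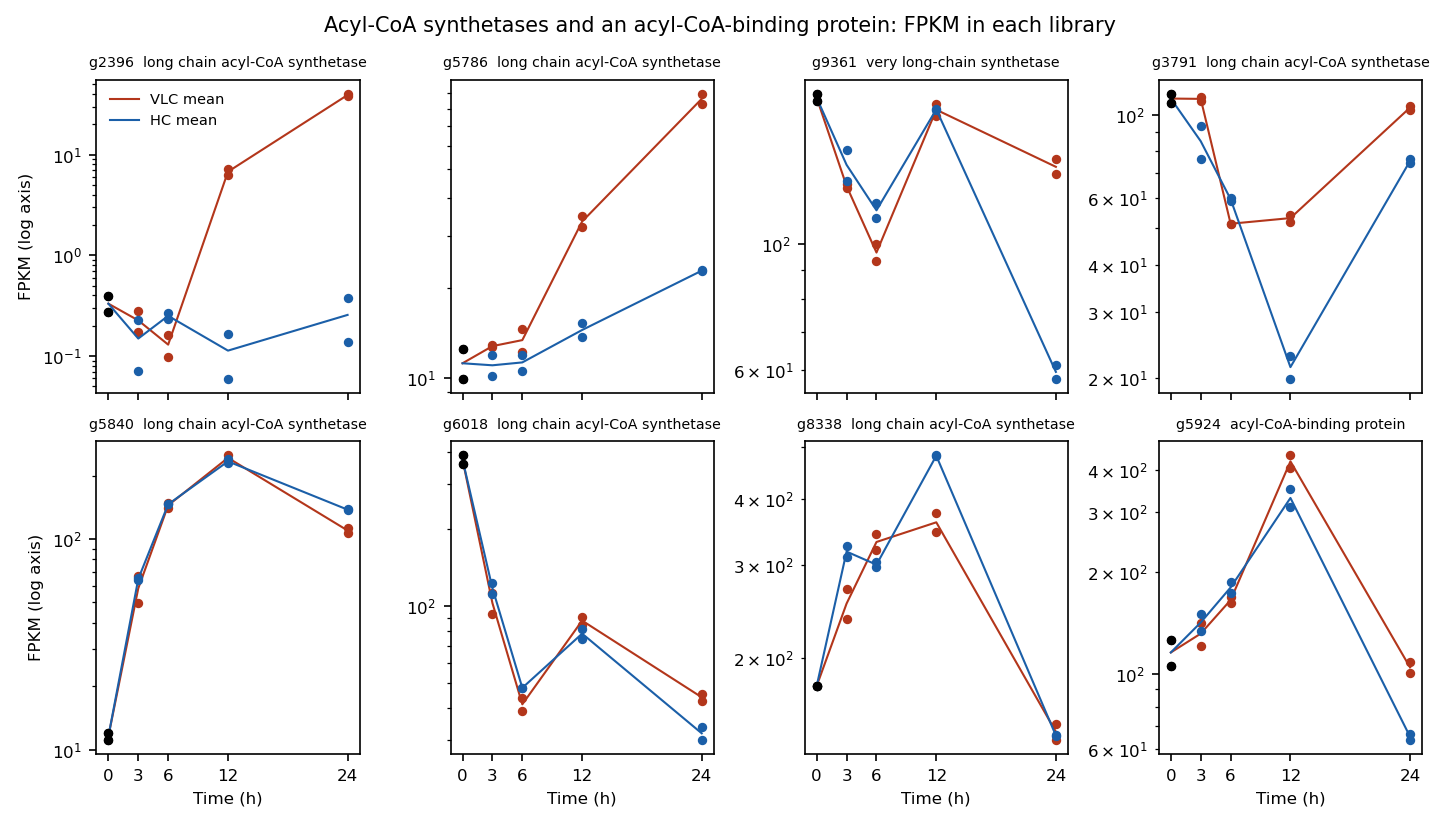
FPKM on log axes (vertical) against time in hours (horizontal) for 7 acyl-CoA synthetase genes and the binding protein g5924, with a point for each library (0 h black, VLC red, HC blue) and lines through the means. VLC climbs away from HC in g2396 and g5786 at 12 h and 24 h, whereas the arms stay close in g5840, which rises, and g6018, which falls.

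Of the 19 oxidation members, 13 were higher than at 0 h in at least 1 of the 8 comparisons of an arm and a time, and 2 were lower in at least 1. These are 68.4% and 10.5% of the 19, beside 42.1% and 42.5% of all 9756 genes. The median 12 h change over all 19 was 1.262 for VLC and 0.335 for HC, beside 0.162 and -0.43 over all genes. After 24 h it was 1.132 and 0.855, beside 0.06 and 0.007. Both arms share the same 0 h pair, so these values are not independent.

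The most abundant of them by mean FPKM was g1094, an acyl-CoA dehydrogenase, the enzyme of the first step of beta-oxidation. Its values were 56.9 and 49.1 at 0 h, 269 and 268 after 3 h of VLC, 294 and 317 after 6 h, 493 and 484 after 12 h, and 354 and 355 after 24 h. In HC they were 204 and 208 after 3 h, 268 and 271 after 6 h, 552 and 545 after 12 h, and 314 and 315 after 24 h. Every later library was above the 0 h pair by more than 3-fold, and the arms were within 2-fold of each other at each time. After 3 h the changes were 2.32 for VLC and 1.94 for HC (adjusted p = 1.1e-11 and 8.4e-11).

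A second acyl-CoA dehydrogenase, g3725, started from 8.16 and 8.40 FPKM and after 12 h read 37.3 and 42.3 with VLC, against 72.9 and 67.7 with HC. It was above its start in both arms, and relative to the median gene it was called lower in VLC at 12 h, at -1.39. The thiolase g1681, which makes the last cut of each round, was higher than at 0 h in both arms at all 4 times, by 1.79 to 1.87 in VLC and 1.26 to 2.06 in HC. The mitochondrial enoyl-CoA hydratase g4575 rose early, by 1.68 (VLC) and 1.81 (HC) after 6 h, and was not called at 12 h or 24 h.

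Between arms, 7 of 19 tested oxidation members were higher in VLC at 12 h (36.8%, beside 27.6% of all genes). At 24 h 1 of 17 tested was higher (5.88%, beside 11.2%), and 0 were lower at either time. The median ratio of the 19 at 12 h was 0.854, beside 0.604 over all genes, and at 24 h it was 0.201 beside 0.077. Relative to the median gene, 3 of the 7 were called at 12 h, the enoyl-CoA hydratases g28, g9197 and g10210. That is 15.8% of the oxidation members tested, beside 8.85% of all genes. The gene g28 had 42.8 and 46.9 FPKM after 12 h of VLC, against 13.6 and 12.9 for HC, and 54.3 and 57.8 against 23.0 and 23.9 after 24 h. The arms were apart at both times, with ratios of 1.69 and 1.22, and g28 was the oxidation member called at 24 h. The gene g10210 had 19.4 and 20.3 FPKM beside 5.44 and 6.46 at 12 h, a ratio of 1.59, and at 24 h 31.7 and 31.2 beside 25.5 and 26.1, not 2-fold. Its neighbour g10212, 1275 bases away on scaffold 354, was not called between arms.

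The hydratase g9197 had 8.90 and 11.4 FPKM after 12 h of VLC, against 2.33 and 2.69 for HC, a ratio of 1.66. Without replicate 2 of VLC its ratio was 1.5. The call was then lost because the VLC library left, at 8.90 FPKM, was under the minimum for testing. The other 4 called at 12 h were thiolase g8129 at 1.25, hydratase g3066 at 1.23, the hydratase/dehydrogenase g8593 at 1.08 and peroxisomal hydratase g1300 at 1.06. The call of g8593 was lost without replicate 1 of VLC (0.935) or replicate 2 of HC (0.93).

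The second most abundant oxidation member, peroxisomal 2,4-dienoyl-CoA reductase g1204, which handles double bonds during oxidation, had 82.8 and 75.5 at 0 h, 118 and 126 after 3 h of VLC, 108 and 94.6 after 6 h, 50.3 and 51.5 after 12 h, and 62.8 and 65.4 after 24 h. Under HC the values were 107 and 132 after 3 h, 113 and 115 after 6 h, 49.2 and 52.0 after 12 h, and 112 and 109 after 24 h. Both arms were low at 12 h, by 24 h HC was above VLC without overlap at a ratio of -0.78, and no comparison was called. The acyl-CoA oxidase g3898, the peroxisomal first step, started from 11.1 and 9.99 FPKM and after 24 h read 49.7 and 50.6 with VLC, and 30.8 and 33.0 with HC. It had risen in both arms by then, by 2.15 and 1.51. Of the MaoC genes, g7554 fell in both arms by 6 h, by 1.46 (VLC) and 1.60 (HC), and g104 was not called.

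**Figure D5:**
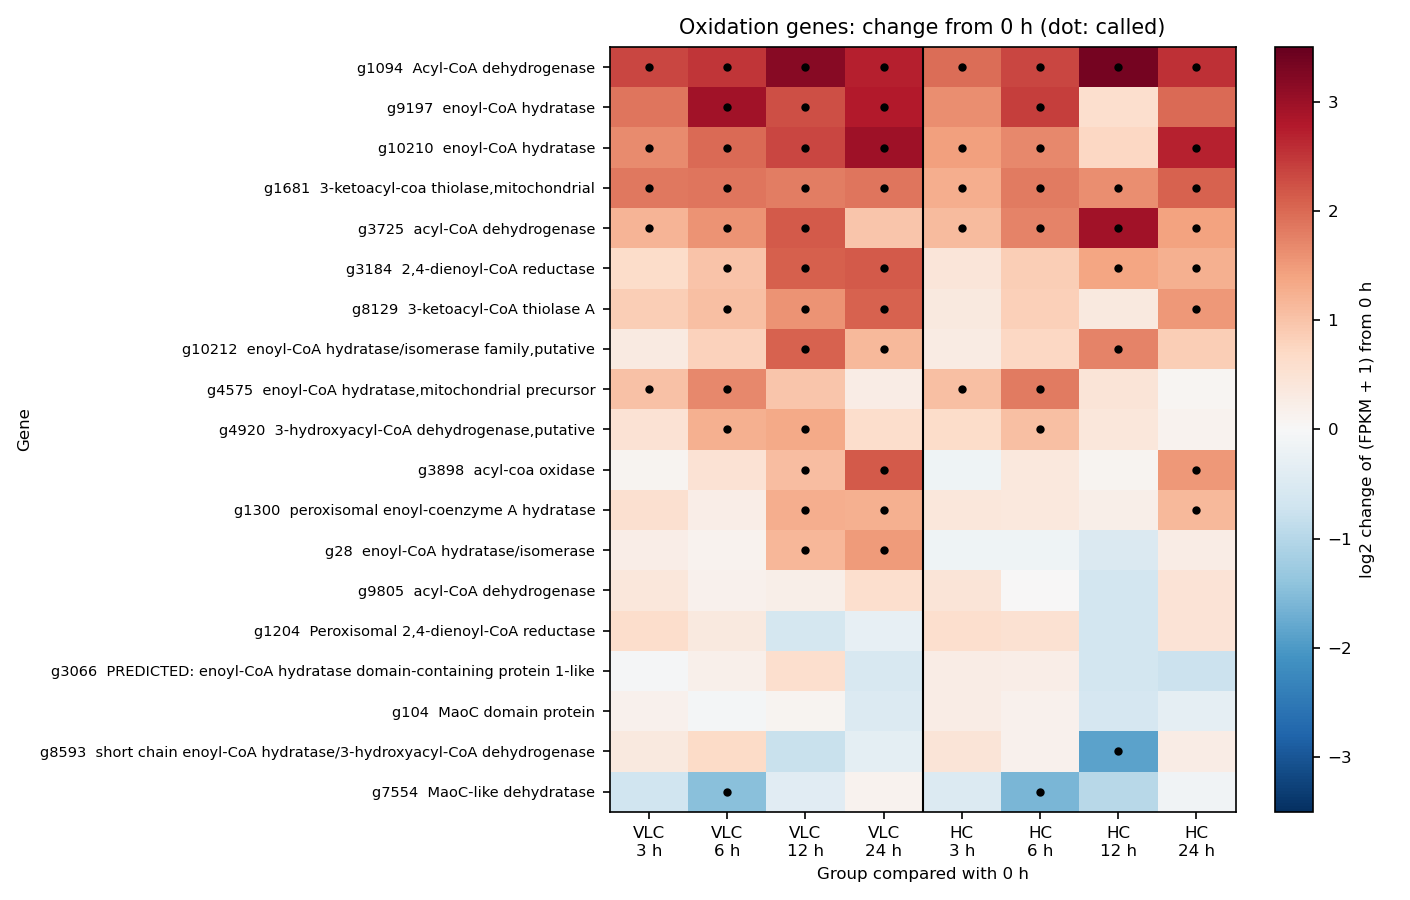
Log2 change of FPKM + 1 from 0 h (colour, red higher and blue lower) of the 19 oxidation genes (rows, ordered by mean change) in VLC and HC at 4 times (columns), with a dot where the change was called. Dehydrogenase g1094 and thiolase g1681 are dotted in all 8 columns, and the column of HC at 12 h holds 6 dots.

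The 3 genes matched by wording only are kept in all counts. The mutase g94, an enzyme of propionyl-CoA breakdown, had 3.61 and 4.04 at 0 h, 27.8 and 29.7 after 3 h of VLC, 39.7 and 49.3 after 6 h, 82.7 and 74.2 after 12 h, and 53.7 and 56.2 after 24 h. The HC libraries held 22.7 and 19.5 after 3 h, 38.9 and 38.0 after 6 h, 43.1 and 35.6 after 12 h, and 33.6 and 32.9 after 24 h. All later libraries were above the 0 h pair, and it was higher than 0 h in both arms at all 4 times. The polyketide cyclase g6930 had 26.6 and 28.2 at 0 h, 23.5 and 19.2 after 3 h of VLC, 13.9 and 10.03 after 6 h, 17.9 and 19.4 after 12 h, and 25.8 and 29.9 after 24 h. With HC the FPKM were 29.8 and 19.1 after 3 h, 9.47 and 10.3 after 6 h, 6.11 and 9.37 after 12 h, and 21.6 and 21.5 after 24 h. At 12 h its ratio was 1.20, called as measured, 0.61 and not called relative to the median gene, and 0.92 and not called without replicate 1 of HC. The decarboxylase g8562, of coenzyme A synthesis, was called in no comparison.

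Within each arm, calls against 0 h went in both directions. After 3 h of VLC, 8 members were above the start and 5 below, 16.3% and 10.2% of those tested, beside 9.95% and 4.87% of all genes. After 6 h there were 15 above and 14 below (29.4% and 27.5%, beside 21.1% and 16.5%). After 12 h there were 23 above and 10 below (43.4% and 18.9%, beside 28.8% and 15.6%). After 24 h of VLC there were 17 and 8 (32.7% and 15.4%, beside 20.8% and 14.8%). After 3 h of HC, 8 were above and 6 below (16.3% and 12.2%, beside 8.18% and 3.71%). The 6 h counts were 14 above and 13 below (26.9% and 25%, beside 20.5% and 15.7%). The 12 h counts were 17 above and 13 below (35.4% and 27.1%, beside 22.4% and 36.4%), and the 24 h counts 12 and 8 (24.5% and 16.3%, beside 14% and 11.3%). The members above 0 h made up a larger share than over all genes in each of the 8 comparisons, and those below a smaller share in HC after 12 h. Relative to the median gene, HC after 12 h had 18 above and 12 below (37.5% and 25.0%, beside 30.1% and 21.4% of all genes), so the share below was then the larger.

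At 6 h, carboxylases g4840 and g7511, transacylase g6828, reductase g5253 and the g4061 and g4062 pair were lower in both arms, among others. Of 19 oxidation members tested, 9 in VLC and 7 in HC were higher (47.4% and 36.8%, beside 21.1% and 20.5% of all genes). The 1 lower in either arm is 5.26%, beside 16.5% in VLC and 15.7% in HC. In VLC the ketoacyl synthases then held 2 higher and 4 lower of 8 tested (25.0% and 50.0%, beside 21.1% and 16.5%). Genes of activation and binding held 2 higher and 2 lower of 8 tested (25.0% each, beside the same shares of all genes). Of the 20 members called higher with VLC after 12 h, 9 were lower than at 0 h in both arms and 7 were higher than at 0 h in VLC. These are 45% and 35% of the 20, beside 13.4% and 29.8% of the 2325 genes called higher with VLC.

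Some members had both libraries of 1 group beyond all other 16 libraries. Among the 56 members reaching 10 FPKM in some group, HC at 12 h was lowest in 17 and highest in 8, which is 30.4% and 14.3%, beside 40.3% and 10.5% of the 9265 genes reaching that level. The 0 h pair was lowest in 13 (23.2%) and highest in 9 (16.1%), beside 10.6% and 9.49%. Of the 13 lowest at 0 h, 10 are from the 19 oxidation genes, among them g1094, g1681, g3725 and g8129. None is a carboxylase or ketoacyl synthase, but those roles hold only 3 and 10 genes.

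The difference between the ratio at 24 h and that at 12 h was tested directly, with the median gene subtracted. It was called in 14 of 56 tested members, 7 higher at 24 h and 7 lower, beside 11.4% and 6.14% of all genes. As measured, 5 were higher and 11 lower (8.93% and 19.6%, beside 6.14% and 25.3% of all genes). Carboxylases g4840 (-2.07) and g7511 (-1.74), reductase g5253 (-2.11), synthases g4061 (-1.68) and g7804 (-1.14), transacylase g6828 (-1.10) and oxidation gene g8593 (-1.18) had the smaller ratio at 24 h. Ketoacyl synthases g1923 (2.25), g8548 (1.96), g7923 (1.93) and g37 (1.40) and synthetases g2396 (2.69), g9361 (1.68) and g5786 (1.20) had the larger. As measured, g5786 (0.71) and g37 (0.91) were not called. Calls that rested on single libraries were g6828, at -0.86 without replicate 1 of HC at 12 h, and g7923, at 1.86 but under the FPKM minimum without replicate 2 of HC at 12 h.

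Other genes of the pathway were taken by keywords for the supply of acetyl-CoA (with dihydrolipoamide and dihydrolipoyllysine transferases), biotin, hydroxyacyl enzymes, thioesterases, carnitine, peroxisome proteins and the glyoxylate cycle. They were 53 genes in all, a few of which match by wording only. Between arms, 2 of 46 tested were above HC after 3 h, 1 of 46 after 6 h, 20 of 52 after 12 h and 3 of 47 after 24 h. The shares over all genes were 0.701%, 1.84%, 27.6% and 11.2%. Below HC there were 0, 0, 3 and 1, beside 0.268%, 0.252%, 4.36% and 5.95% of all genes. Relative to the median gene, 9 of 52 were above and 6 below after 12 h, beside 8.85% and 11.4% of all genes. Limma gave 17 of 46 at 3 h and 14 of 46 at 6 h at an unadjusted p under 0.05. The share of all genes at that p was not counted. The dehydratase of the synthesis cycle, g2692, whose annotation lies outside the rule, started from 532 ± 10.3 FPKM and after 12 h read 171 ± 1.35 with VLC, against 72 ± 5.80 with HC (SD, n = 2). Its ratio was 1.24 as measured, where the median gene tested was itself 0.58 above HC. Values of this gene and those that follow are not relative to the median gene. Pyruvate dehydrogenase gene g4805, whose complex makes acetyl-CoA, fell from 1285 ± 59.1 FPKM to 125 ± 4.69 after 12 h of VLC, against 43.6 ± 6.90 for HC. Isocitrate lyase g8450, the entry of the glyoxylate cycle, was higher in VLC at 3 h with 59.1 ± 4.25 FPKM beside 21.7 ± 0.30, a ratio of 1.40. ATP-citrate synthase g1998 was lower in VLC at 12 h and 24 h, at -1.02 and -1.09. A fatty acid-ACP thioesterase, g9763, which releases finished chains, was higher in VLC at 24 h, at 1.93.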

How the data were processed

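Poly(A) RNA of 18 libraries was aligned by the authors to the IMET1 genome with TopHat2 (2.0.4), leaving out reads with more than 1 location, and they deposited FPKM of 9756 genes from Cufflinks, version 2.0.2 in the submitters' processing notes. The paper names another version. Coordinates are the scaffold positions of the tables, and no sequence is shown since no nuclear reference was used here.

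Here log2(FPKM + 1) of 9665 genes, those with mean FPKM of at least 1 in a group, was fitted in limma (3.58.1, R 4.3.3) with all 9 groups in 1 model and a variance trend. P-values were adjusted by Benjamini-Hochberg within each comparison, counting those genes whose mean FPKM reached 10 in at least 1 of the groups compared. They measure only the spread between libraries of the same group, pooled over all 9 groups, and libraries of different times may share a culture. A call needed an adjusted p of at most 0.05 and a 2-fold change. For ratios relative to the median gene, the median ratio of tested genes was first subtracted. The model was tested on data simulated for VLC/HC at 12 h over 7400 genes, where 99 of 100 genes changed 2.5-fold, 100 of 100 changed 4-fold and 1 unchanged gene were called. The simulation drew all libraries from the 0 h means, with the same noise in each group and no shift of the median gene. It therefore cannot tell how calls fare under the shift of the median gene seen at 12 h.

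Members and lists were chosen with earlier results of these data known. Values in every library are given for g4840, g2396, the 2 members of each role with the highest mean FPKM, and the 3 largest rises and falls called in VLC/HC at each time; roles were set from the annotation, and unspecified ketoacyl synthases were placed with the type I and polyketide synthases. The other members and the genes that are no members were picked after their values were seen. Tables were handled in Python 3.11.15 with pandas 2.3.3 and drawn with matplotlib 3.10.9. No columns of the deposited tables were left unmapped, and the read depth was not used.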

Additional observations from a re-analysis of the deposited data

Results flagged for a closer look

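The ratio VLC/HC, relative to the median gene, differed between 24 h and 12 h in 14 members by a direct limma test of the difference. It was smaller at 24 h in g5253 (-2.11), g4840 (-2.07), g7511 (-1.74), g4061 (-1.68), g8593 (-1.18), g7804 (-1.14) and g6828 (-1.10). It was larger at 24 h in g5786 (1.20), g37 (1.40), g9361 (1.68), g7923 (1.93), g8548 (1.96), g1923 (2.25) and g2396 (2.69). Without subtracting the median gene, g5786 (0.71) and g37 (0.91) fell below 2-fold and were not called. Groups held 2 libraries each, too few to look for a single library that stands apart.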

How the results depend on the processing

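No total of called members moved by more than 1.5 times under any alternative, but its split by direction did under the other scaling. The alternatives were a pseudocount of 0.1, an FPKM minimum of 1 or none, the median gene subtracted (or, for the difference between times, not subtracted), a replicate block, only the groups compared in the model, and each library left out in turn. For VLC/HC at 12 h the count ran from 15 to 26, beside 22, and from 21 to 24 with a library left out. At 24 h it was 5 under all settings but leaving out a library, where it ran from 5 to 6. The counts at 3 h and 6 h stayed at 0. The difference between 24 h and 12 h gave 14 to 16, and 13 to 14 with a library left out. Subtracting the median gene took the 12 h calls from 20 higher and 2 lower to 8 and 7. It ended 12 of the 22 calls, all of them higher in VLC, and added 5 lower. For the difference between times, not subtracting it took 7 higher and 7 lower to 5 and 11. No called value of VLC/HC or of the difference changed sign under any alternative, but among members not called the scaling turned the sign of 17 of the 56 fitted at 12 h.

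The replicate numbers of the labels were not used as a pairing, since no source says whether same-numbered libraries share a culture. Correlations of their deviations cannot settle that. Deviations of same-numbered libraries correlated between -0.27 and 0.21 over 36 pairs of groups, over 0.1 in 3 of them, and between -0.0025 and 0.016 for VLC and HC at the same time. With the replicate block, 22 members were called in VLC/HC at 12 h, 5 at 24 h and 14 for the difference, the same counts as without it, and no count against 0 h changed. With 2 libraries a group, the model pools each gene's spread over all groups, and HC at 3 h, the widest pair, is not given a wider error.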
